A study of Mus musculus with 4 samples.

Results

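IN9 is 1 of 12 subtypes of inhibitory neurons that the authors named in single nuclei of the developing mouse superior colliculus. Its members were all nuclei that carry this subtype name in the deposited table of nuclei, 173 of 9724 nuclei in all and 173 of 3459 inhibitory nuclei. The other 11 inhibitory subtypes held 3286 nuclei. Tissue came from C57BL/6J mice at embryonic day 19 (E19) and at postnatal days 4, 8 and 21 (P4, P8 and P21). No genotype or treatment other than the strain was given, and each stage was 1 library of nuclei pooled from several animals, whose number and sex are not given in the labels.

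The superior colliculus is a layered structure of the dorsal midbrain that receives retinal input in its upper layers and directs the eyes, head and body in its deeper layers. Its inhibitory neurons make GABA with the glutamate decarboxylases Gad1 and Gad2 and load it into vesicles with the transporter Slc32a1. Pax7 is a paired-box transcription factor that marks the dorsal midbrain during development and stays on in many collicular neurons. In the weeks around birth these neurons grow axons and dendrites, lose embryonic cytoskeletal proteins and form synapses.

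The libraries held between 19277512 (E19) and 31325079 (P21) unique molecular identifiers (UMIs, counts of single captured RNA molecules). IN9 was represented by 32, 22, 74 and 45 nuclei, which together carried 153978, 123658, 639924 and 477199 UMIs. Levels are given below as counts per 1000000 UMIs (CPM) of all IN9 nuclei of a library, in the order E19, P4, P8 and P21. A single UMI was worth 6.49, 8.09, 1.56 and 2.10 CPM in these sums, so the values from E19 and P4 are the least precise. With 1 library per stage there is no replicate, no test was made, and every interval is a 95% interval for counting error only (exact Poisson for CPM, Clopper-Pearson for shares). The median IN9 nucleus held 4783.5, 5741.5, 8475.5 and 10699 UMIs, fewer at each stage than the median of 6151, 7806, 9387.5 and 14457 in the other inhibitory subtypes. No IN9 barcode occurred in more than 1 library, although 18 nuclei of other kinds shared theirs.

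IN9 made up a small share of the inhibitory neurons at each stage. At E19 it was 3.58% (2.46 to 5.02) and at P4 2.98% (1.88 to 4.48). The P8 share was 6.80% (5.38 to 8.46) and the P21 share 6.08% (4.47 to 8.05). The intervals of the E19 and P4 shares lay below that of P8, and the P21 interval overlapped that of E19 and, at its edge, that of P4. As a share of all neurons the values were 1.43%, 1.13%, 3.79% and 3.16%. The spread between animals or between captures was not measured, and the share of IN9 depends on how the other nuclei were captured.

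Gad1, Gad2 and Pax7 are the markers given with the name IN9. The names come from clustering these nuclei, so the levels of these markers describe IN9 and are no independent check of it. Gad1, which makes most of the cytosolic GABA, stood at 286, 404, 269 and 235 CPM in IN9, against 283, 259, 283 and 236 CPM in the other inhibitory subtypes. Gad2, the vesicle-associated form, stood at 546, 687, 561 and 495 CPM, against 557, 486, 437 and 361 CPM. Both genes were thus within 2-fold of the other inhibitory subtypes at each stage. A Gad2 UMI was present in 93.8%, 95.5%, 95.9% and 95.6% of IN9 nuclei, whereas excitatory nuclei, which should lack it, had one in 11.8% to 21.7% at median depths of 8051.5, 11738, 14158 and 19601 UMIs. Slc32a1 stood at 104, 56.6, 59.4 and 69.2 CPM against 111, 91.8, 54.5 and 78.6 CPM. Slc17a6, the vesicular glutamate transporter of excitatory collicular neurons, had a UMI in 15.6%, 31.8%, 14.9% and 13.3% of IN9 nuclei, against 24.2%, 24.6%, 17.1% and 11.1% of the other inhibitory nuclei and 84.5%, 88.4%, 87.3% and 90.9% of excitatory nuclei. The glutamate transporter Slc17a7, the glycine transporter Slc6a5, choline acetyltransferase (Chat) and tyrosine hydroxylase (Th) had no UMI in IN9 in any library.

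The subtype name was set beside the authors' other label sets. Of the 173 IN9 nuclei, 168 belonged to 1 cluster of the integrated data, and IN9 made up 93.3% of the 180 nuclei of that cluster. One set of reference labels called 127 of them (73.4%, 66.2 to 79.8) ISC5, 32 of them ESC2 and 14 of them ESC1. For comparison, the name ISC5 was given to 36.1% to 87.6% of the nuclei of the other inhibitory subtypes and to 2.88% of excitatory nuclei. The second reference gave 172 of the 173 nuclei the same number, which it gave to 192 nuclei in all. The subtype names come from clustering these nuclei, so the share in 1 cluster is no independent check of the name. For the same reason all ratios below between IN9 and other subtypes describe the cluster and were not tested.

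Pax7 (ENSMUSG00000028736, chromosome 4, 139737062 to 139833528, minus strand, GRCm38) was high in IN9 at each stage. Its IN9 level was 468 CPM (366 to 589, 72 UMIs) at E19 and 364 CPM (265 to 487, 45 UMIs) at P4. It was 398 CPM (351 to 451, 255 UMIs) at P8 and 161 CPM (127 to 202, 77 UMIs) at P21. The other inhibitory subtypes together stood at 117, 93.1, 93.9 and 51.1 CPM, and excitatory neurons at 3.64, 1.95, 2.73 and 1.23 CPM. IN9 ranked 2 of 12 at E19 and P4, where IN4 stood at 500 and 432 CPM, and 1 of 12 at P8 and P21. The neighbours in that order did not separate at most stages: the intervals of IN9 and IN4 overlapped at E19, P4 and, narrowly, P8, and at P21 IN11 (154 CPM) and IN12 (137 CPM) fell within the IN9 interval. IN5 and IN10 lay at the other end, at 19.6 CPM or 19.7 CPM at E19.

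A Pax7 UMI was found in 26 of 32, 17 of 22, 62 of 74 and 35 of 45 IN9 nuclei. After each nucleus was thinned to 2300 UMIs, which every neuron reached, it was found in 19 of 32, 13 of 22, 37 of 74 and 14 of 45 IN9 nuclei, the last being 31.1%, against 20.8%, 16.9%, 16.4% and 9.78% in the other inhibitory subtypes and 1.12%, 0.332%, 0.231% and 0.293% in excitatory neurons. The IN9 level was lower at P21 than at E19, with a log2 ratio of -1.51, and the other inhibitory subtypes moved in the same direction with -1.12.

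**Figure D1:**
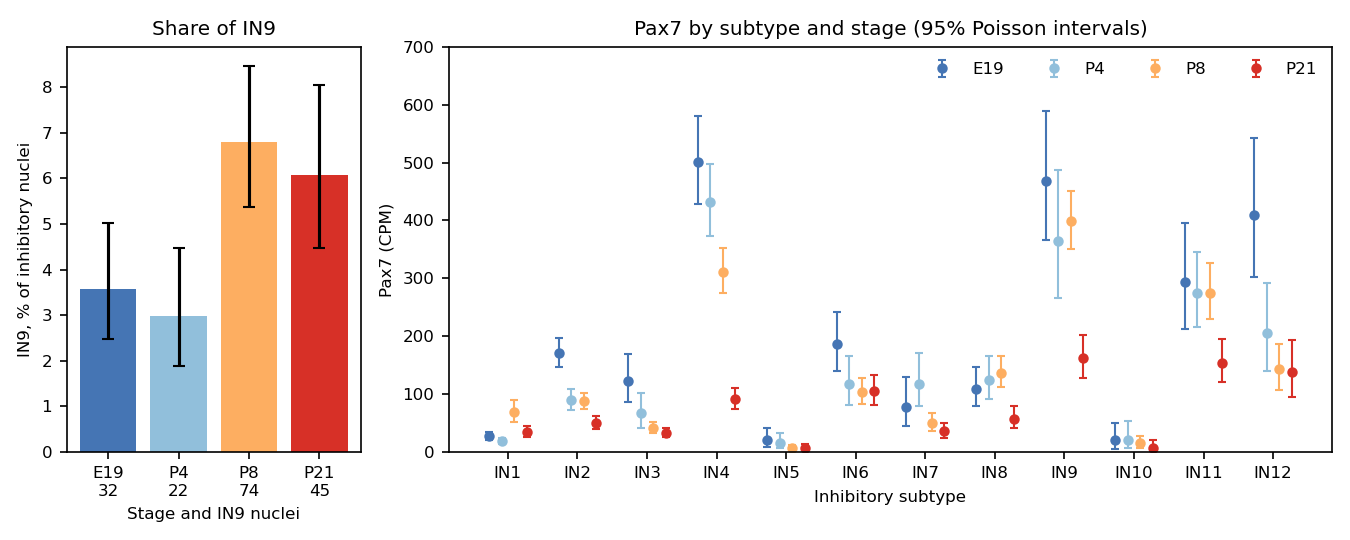
Left, IN9 as a percentage of inhibitory nuclei at the 4 stages (bars, 95% Clopper-Pearson intervals, number of IN9 nuclei under each stage). Right, Pax7 level in CPM (points, 95% Poisson intervals) in the 12 inhibitory subtypes, with 1 colour per stage. IN9 and IN4 were the highest at E19 and P4, and the P21 point of IN9, at 161 CPM, lay beside those of IN11 and IN12.

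Genes were compared between IN9 and the sum of the other inhibitory subtypes of the same library on the log2(CPM + 5) scale, which understates the change of low genes. Of 7540 genes with a mean of 20 CPM or more in either group, 32 (0.424%) were more than 2-fold higher in IN9 in all 4 libraries and 116 (1.54%) were more than 2-fold lower. Of the 116 lower genes, 42 had no IN9 UMI in at least 1 library, and 90 genes met the rule when such a library was set to the 3 UMIs that a count of 0 allows. The 15 genes highest by the library nearest to 0 were Il1rapl2, Tmem132d, Nxph1, Arhgap31, Slc24a4, Kit, Fstl4, Tmem178, Pax7, Tiam2, Rnf152, Kirrel3, Srrm4, Tfap2b and Galnt7. IN9 was the highest of the 12 subtypes in all 4 libraries for 10 of these 15 genes. They were picked as high in IN9 in the same libraries, so a high rank follows in part from the choice. The same count over all compared genes is not given here.

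Nxph1 (chromosome 6, 8948431 to 9249032, plus strand) encodes neurexophilin, a secreted ligand of neurexins. It stood at 8858, 9599, 8438 and 4212 CPM in IN9, against 2064, 1586, 1310 and 919 CPM in the other inhibitory subtypes. The log2 ratios were 2.10, 2.59, 2.68 and 2.19, and the next subtype in every library was IN2, at 5796, 4554, 4525 and 2835 CPM. Nxph1 was therefore not confined to IN9, and a UMI was also present in 44.3% to 66.1% of excitatory nuclei.

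Il1rapl2 (X chromosome, 137570608 to 138846946, plus strand) belongs to the interleukin 1 receptor accessory family, whose members act as synaptic adhesion proteins. Its level was 2910, 2604, 4710 and 4135 CPM in IN9, against 515, 496, 636 and 585 CPM in the other inhibitory subtypes, with log2 ratios of 2.49, 2.38, 2.88 and 2.81. IN6 shared it: at E19 and P4 IN6 stood at 2878 and 2709 CPM, within the IN9 intervals, and at P8 and P21 at 2710 and 2934 CPM, below them. Kirrel3, an immunoglobulin-family synaptic adhesion gene, stood at 6092, 5717, 6373 and 4099 CPM in IN9 against 2160, 1812, 1782 and 1302 CPM, and IN9 was the highest subtype throughout. Of 48 genes that lead the rankings, 25 overlap an annotated gene on the opposite strand, Kirrel3 and the splicing regulator Srrm4 among them. Reads of such a pair cannot be told apart if counting did not use strand. Of the same 48 genes, 18 overlap an annotated gene on the same strand, where using strand does not tell reads apart.

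Fstl4 (chromosome 11, 52764634 to 53188538, plus strand), a secreted follistatin-like protein, stood at 2702, 2701, 2286 and 1054 CPM in IN9 against 207, 181, 296 and 337 CPM. The ratios of Fstl4 and Tiam2 narrowed most between the early libraries and P21, that of Fstl4 from log2 values of 3.68 and 3.86 at E19 and P4 to 1.63 at P21. Tmem132d (chromosome 5, 127781630 to 128433077, minus strand), a membrane protein, stood at 1935, 2442, 1931 and 1358 CPM against 420, 345, 439 and 205 CPM. Every IN9 nucleus had a Tmem132d UMI (173 of 173 over the 4 libraries), whereas 38.0% to 49.2% of other inhibitory nuclei and 31.3% to 56.2% of excitatory nuclei had one.

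Kit, a receptor tyrosine kinase, stood at 195, 307, 258 and 157 CPM in IN9, against 55.1, 44.7, 46.0 and 18.9 CPM, and IN6 came next at 172, 160, 129 and 121 CPM. Tiam2, an exchange factor for the small GTPase Rac, stood at 221, 332, 177 and 75.4 CPM against 10.8, 17.7, 26.3 and 22.9 CPM. At E19 its 34 UMIs came from 9 of 32 nuclei. Arhgap31, a GTPase-activating protein for Rac and Cdc42, stood at 104, 56.6, 125 and 58.7 CPM against 10.3, 10.7, 17.0 and 9.33 CPM, but IN12 was higher in every library, at 171, 72.7, 180 and 66.6 CPM. Slc24a4, a sodium, potassium and calcium exchanger, was the lowest of the 15 genes in level at E19 and P8, but not at P4 and P21. It stood at 52.0, 64.7, 93.8 and 77.5 CPM against 5.51, 9.10, 12.6 and 18.7 CPM. Only 8 UMIs stood behind each of its E19 and P4 values.

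The other 4 genes of the group that were not transcription factors, Tmem178, Rnf152, Srrm4 and Galnt7, had log2 ratios between 1.36 and 2.50. Rnf152, an E3 ubiquitin ligase of the lysosome, stood at 753, 445, 613 and 346 CPM against 137, 113, 128 and 117 CPM. Srrm4, which promotes neuronal microexon splicing, stood at 812, 1011, 1008 and 557 CPM against 285, 309, 319 and 188 CPM. Galnt7, an enzyme of protein O-glycosylation, stood at 273, 251, 181 and 258 CPM in IN9, level with IN12 at E19 (273 CPM) and below it at P8 and P21 (262 and 350 CPM).

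Joint presence of some of these genes was counted per nucleus. They were picked as high in IN9, so a large joint share in IN9 follows from the choice. A UMI of Nxph1, Il1rapl2 and Pax7 was present in 129 of 173 IN9 nuclei (74.6%, 67.4 to 80.9), in 427 of 3286 other inhibitory nuclei and in 28 of 4093 excitatory nuclei (0.684%). For Kit and Pax7 the shares were 60.1%, 10.2% and 0.855%. Co-occurrence beyond the share of each gene alone was not tested. These shares are as counted and were not thinned, and the IN9 nuclei were the shallowest of the 3 groups.

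**Figure D2:**
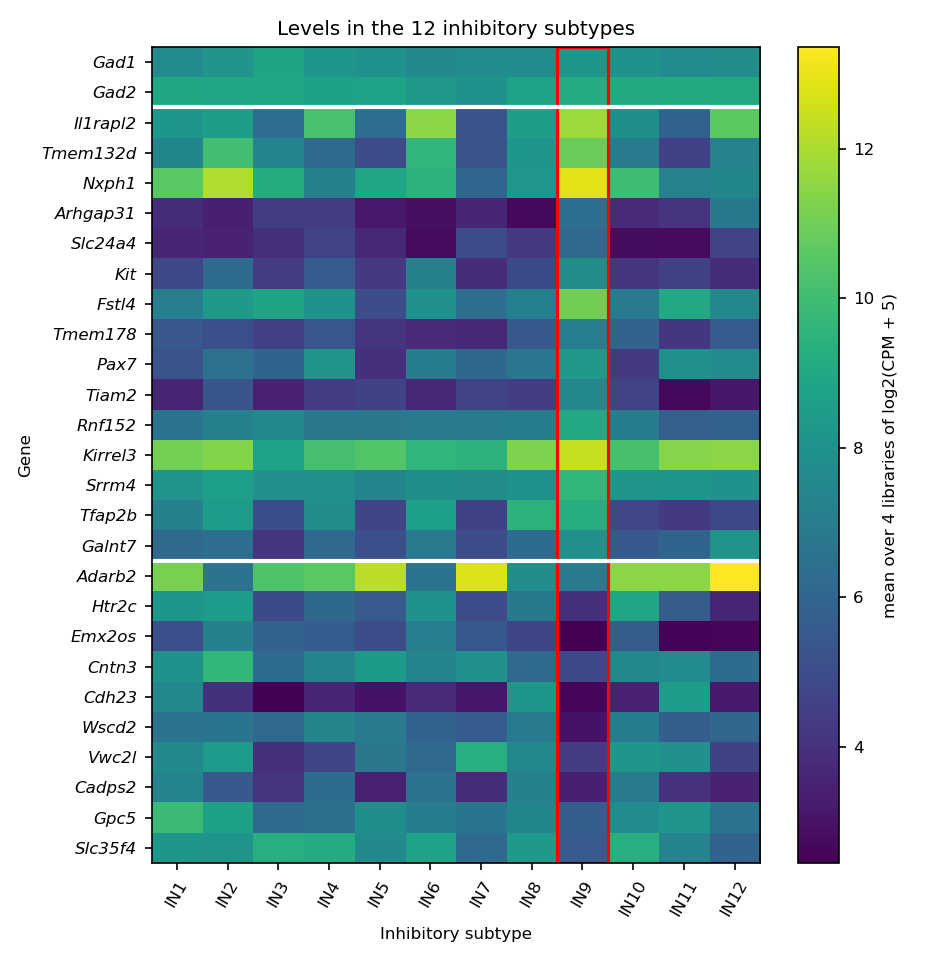
Mean over the 4 libraries of log2(CPM + 5) in the 12 inhibitory subtypes (columns), with IN9 outlined in red. Rows are Gad1 and Gad2, the 15 genes highest in IN9 and the 10 lowest, separated by white lines. Gad1 and Gad2 are similar across the columns, Nxph1 is shared with IN2 and Il1rapl2 with IN6, and Adarb2 is low in IN2, IN6, IN8 and IN9.

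The 10 lowest genes in IN9 were Adarb2, Htr2c, Emx2os, Cntn3, Cdh23, Wscd2, Vwc2l, Cadps2, Gpc5 and Slc35f4. Adarb2 (chromosome 13, 8202866 to 8768747, plus strand) encodes an RNA-binding relative of the RNA-editing deaminases and marks a large branch of cortical interneurons. It stood at 169, 154, 100 and 75.4 CPM in IN9 against 2517, 2512, 2377 and 1854 CPM in the other inhibitory subtypes, with log2 ratios of -3.86, -3.99, -4.50 and -4.53. IN9 was not the lowest for it, ranking 10 or 11 of 12, and IN12 was the highest, at 9865 to 11583 CPM. At E19 an Adarb2 UMI was found in 56.3% of IN9 nuclei and 50.1% of the deeper excitatory nuclei. At P4, P8 and P21 it was found in 10 of 22, 37 of 74 and 16 of 45 IN9 nuclei, smaller shares than the 59.8%, 70.8% and 63.6% of excitatory nuclei.

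Htr2c, the serotonin 2C receptor, had 0, 1, 6 and 23 UMIs in IN9, or 0, 8.09, 9.38 and 48.2 CPM, against 133, 208, 152 and 537 CPM in the other inhibitory subtypes. Its E19 level was at least 6.82-fold lower. Cntn3, a contactin of the neuronal surface, and Wscd2, a sulfotransferase-domain gene, were the ones of these 10 genes for which IN9 was the lowest of the 12 subtypes in every library. Cntn3 stood at 32.5, 16.2, 20.3 and 27.2 CPM against 316, 357, 312 and 312 CPM, and Wscd2 at 0, 0, 9.38 and 6.29 CPM against 82.7, 106, 120 and 79.9 CPM.

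Emx2os, an antisense transcript of the homeobox gene Emx2, had 1 UMI in all IN9 nuclei, at P21, against 73.0, 42.9, 69.3 and 61.0 CPM in the other inhibitory subtypes. At P8, the deepest library for IN9, that was at least 14.8-fold lower, although IN11 and IN12 were also at 0 or near it. Cdh23, an atypical cadherin, had 4 UMIs in all, at P8, but ranked 7 of 12 there, since IN1, IN8 and IN11 held most of it. Gpc5, a glypican, and Slc35f4, a solute carrier, ranked 11 or 12 of 12 in every library.

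**Figure D3:**
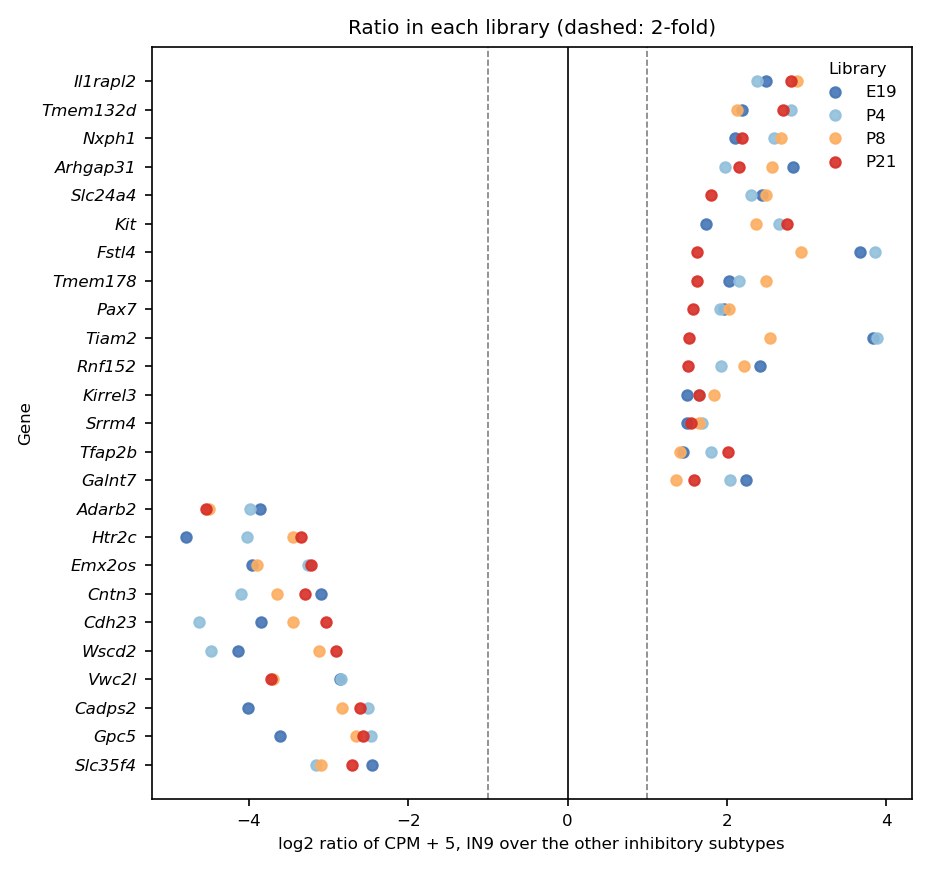
Log2 ratio of CPM + 5 between IN9 and the sum of the other inhibitory subtypes, with 1 point per library, for the 15 highest and 10 lowest genes. Dashed lines mark 2-fold. All points lie beyond them, and those of Fstl4 and Tiam2 spread most among the higher genes, from 3.86 and 3.89 at P4 to 1.63 and 1.53 at P21. Points of lower genes with no UMI depend on the added 5 CPM.

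Transcription factors were found on both sides. Of 38 genes on a list of midbrain patterning and GABAergic selector factors, 14 reached the level to be compared, 2 were more than 2-fold higher in every library (Pax7 and Tfap2b), and 1 (Meis2) was lower, where 0.424% of all genes were higher and 1.54% lower. Their median log2 ratio was 0.41, beside -0.02 over all genes. Pax7 is a marker of the name IN9, so its call is no finding about this list. Tfap2b (chromosome 1, 19208914 to 19238576, plus strand), an AP-2 factor of midbrain GABAergic neurons, stood at 948, 704, 639 and 327 CPM in IN9, against 344, 199, 238 and 76.9 CPM in the other inhibitory subtypes. IN8 exceeded it at the first 3 stages, at 1457, 861 and 798 CPM, and stood at 243 CPM at P21. Zfpm2, a cofactor of GATA factors, stood at 3371, 2143, 2411 and 1899 CPM against 1795, 1333, 1658 and 1374 CPM. Meis2, a TALE homeobox factor, stood at 64.9, 72.8, 29.7 and 27.2 CPM against 411, 255, 382 and 344 CPM. The comparison for Meis2 rests on IN3, the subtype that holds most of it, since the median of the other subtypes was 99.4, 66.1, 47.4 and 33.2 CPM.

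Of 69 other neuronal transcription factors, 40 were compared. Of these, 2 were higher (Rorb and Zfhx3) and 6 were lower, beside 0.424% and 1.54% of all genes. Their median log2 ratio was -0.68 (-0.57 with counts of 0 set at their limit). Rorb, an orphan nuclear receptor, stood at 786, 615, 633 and 488 CPM against 232, 157, 263 and 157 CPM. Zfhx3, a large zinc finger homeodomain factor, stood at 6527, 4755, 4847 and 3116 CPM against 2195, 1643, 1758 and 1338 CPM, always behind IN12. Sox11, a factor of young neurons, did not reach 2-fold in every library but was highest in IN9 throughout, at 461, 299, 239 and 128 CPM against 264, 132, 127 and 47.5 CPM. Foxp2, a forkhead factor, stood at 58.4, 89.0, 18.8 and 29.3 CPM against 553, 443, 596 and 462 CPM, and Nfib, a nuclear factor I gene, at 39.0, 48.5, 20.3 and 10.5 CPM against 407, 226, 183 and 182 CPM. For Nfib, too, the difference depended on 1 subtype, IN4, beside which the median of the others was 104, 37.6, 27.6 and 16.4 CPM.

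Of 35 neuropeptide and modulator genes, 9 reached the level to be compared in IN9 or in the other inhibitory subtypes. Nxph1 was the one that was 2-fold higher in every library, beside 0.424% of all genes. Sst (somatostatin) stood at 26.0, 32.3, 12.5 and 2.10 CPM, against 236, 60.5, 33.8 and 21.7 CPM in the other inhibitory subtypes. Of 15 calcium-binding and class marker genes, 9 were compared. Kit was higher and Vwc2l and Spon1 were lower, beside 0.424% and 1.54% of all genes. Pvalb (parvalbumin) had no IN9 UMI before P21 and stood at 23.1 CPM there, against 8.31 CPM in the other inhibitory subtypes. Reln, the extracellular matrix protein reelin, stood at 32.5, 146, 93.8 and 35.6 CPM against 184, 181, 285 and 318 CPM.

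Few receptors for GABA and glutamate passed 2-fold against the other inhibitory subtypes. None of 11 GABA-A receptor subunit genes passed 2-fold in every library in either direction, and their median log2 ratio was -0.16. At any size, 1 of the 11 was higher and 5 lower in all 4 libraries, beside 11.8% and 14.2% of all genes. Gabrb1 stood at 312, 461, 616 and 641 CPM against 658, 809, 846 and 901 CPM. Among 8 genes of glycine receptors, chloride transport and gephyrin, Glra1 alone was lower past 2-fold in each library (beside 1.54% of all genes). It had 0, 0, 1 and 2 UMIs. Against the limit of a count of 0, Glra1 was at least 1.25-fold lower at E19 and at least 1.18-fold lower at P4, so that the 2-fold call ended there, and it stood at 1.56 and 4.19 CPM against 45.2 and 57.5 CPM at P8 and P21.

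Of 16 ionotropic glutamate receptor genes, 1 passed, as higher (beside 0.424% of all genes). At any size, 3 of the 16 were higher and 5 lower in all 4 libraries, beside 11.8% and 14.2% of all genes. The gene that passed was Grin3a, the NMDA receptor subunit that lowers calcium permeability. Grin3a stood at 1747, 2466, 1722 and 689 CPM in IN9 against 360, 509, 458 and 292 CPM, and IN9 was the highest of the 12 subtypes at each stage. Grik4, a kainate receptor subunit, was also highest in IN9 at each stage, at 559, 623, 731 and 532 CPM against 270, 263, 283 and 277 CPM. Grm3, a group II metabotropic receptor that signals through Gi proteins, was the 1 of 6 metabotropic genes that passed, as lower (beside 1.54% of all genes). It stood at 156, 162, 153 and 109 CPM against 534, 474, 544 and 323 CPM. At any size, 1 of the 6 was higher and 3 were lower in all 4 libraries.

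Of 58 receptors for acetylcholine, monoamines and peptides, 19 were compared. Of these, 1 was higher (Hcrtr2) and 2 were lower (Htr2c and Oprm1), beside 0.424% and 1.54% of all genes. Their median log2 ratio was -0.73 (-0.70 with counts of 0 set at their limit). Hcrtr2, the orexin 2 receptor, stood at 221, 178, 241 and 184 CPM against 78.0, 77.6, 75.1 and 49.9 CPM, and IN9 ranked 1, 2, 1 and 1 of 12. The call of Oprm1 ended with its E19 count of 0 at the limit, at least 1.75-fold lower. Oprm1, the mu opioid receptor, stood at 0, 8.09, 18.8 and 16.8 CPM against 34.1, 48.9, 65.5 and 54.0 CPM. Chrm3, the muscarinic M3 receptor, stood at 77.9, 170, 286 and 360 CPM against 572, 712, 662 and 702 CPM, so that its gap was wider at E19 than at P21.

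Of 34 potassium channel genes 1 was lower (beside 1.54% of all genes) and none higher past 2-fold in each library, with a median of -0.18. At any size, 8 were higher and 8 lower in all 4 libraries, beside 11.8% and 14.2% of all genes. The lower gene, Kcnip4, encodes an auxiliary subunit of Kv4 channels and stood at 390, 1342, 1556 and 1456 CPM against 2194, 3218, 3840 and 4940 CPM. Its relative Kcnip2 lay on the other side, at 32.5, 64.7, 90.6 and 56.6 CPM against 16.9, 22.7, 20.6 and 20.3 CPM. Of 36 sodium, calcium, HCN and TRP channel genes, only Trpc4 passed, as lower (beside 1.54% of all genes), with 1, 0, 3 and 3 UMIs. Its call ended with the count of 0 at its limit, which made Trpc4 at least 1.35-fold lower at P4. At any size, 4 of the 36 were higher and 15 lower in all 4 libraries, beside 11.8% and 14.2% of all genes. Cacng3, an auxiliary subunit of AMPA receptors, stood at 188, 299, 294 and 191 CPM against 65.1, 70.1, 72.2 and 98.6 CPM, short of 2-fold at P21 alone.

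Of 49 axon guidance genes compared, 6 were lower (beside 1.54% of all genes) and none higher past 2-fold in every library, with a median of -0.04. The call of 1 of the 6, the secreted semaphorin Sema3c, ended with counts of 0 at their limit (at least 1.25-fold lower at E19). At any size, 11 of the 49 were higher and 15 lower in all 4 libraries, beside 11.8% and 14.2% of all genes. Dcc, the netrin receptor that attracts axons, stood at 286, 154, 131 and 62.9 CPM in IN9 against 1484, 1370, 1184 and 1180 CPM, and IN9 was the lowest of the 12 subtypes throughout. After thinning, a Dcc UMI was found in 40.6%, 31.8%, 24.3% and 13.3% of IN9 nuclei, against 69.8% to 73.0% of the other inhibitory nuclei. Unc5c, a netrin receptor that repels axons, went the other way, at 1279, 1609, 2269 and 1190 CPM against 516, 691, 710 and 684 CPM, and was highest in IN9 at every stage. Slit3, a secreted repellent, stood at 6.49, 16.2, 17.2 and 29.3 CPM against 99.2, 173, 115 and 90.2 CPM. Sema5a, a transmembrane semaphorin, stood at 370, 501, 278 and 612 CPM against 132, 158, 161 and 172 CPM.

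Among 55 adhesion and synapse-organising genes, Il1rapl2 was higher and 5 were lower (beside 0.424% and 1.54% of all genes), with a median of -0.17. Cntnap5a, a contactin-associated protein, was lowest in IN9 in every library, at 156, 275, 239 and 342 CPM against 1001, 1049, 986 and 1098 CPM. Of 22 cadherins and protocadherins 3 were lower (beside 1.54% of all genes), Cdh23, Cdh9 and Pcdh9, with a median of -0.41. Pcdh9 stood at 1007, 1383, 1724 and 2701 CPM against 3472, 4845, 4623 and 5428 CPM. Cdh8, a type II cadherin, stood on the other side at 1234, 1181, 1178 and 949 CPM against 666, 670, 660 and 471 CPM, short of 2-fold in each library but P21, where its log2 ratio was 1.00.

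Of 16 compared genes of immature neurons and growth, 9 were higher in IN9 in all 4 libraries at any size, beside 11.8% of all genes, and 1 (Igfbpl1) was lower, beside 14.2%. None passed 2-fold in every library, and the median log2 ratio was 0.33. Tubb3 and Tuba1a were listed at 0 in every library and were not compared. Nnat was lower in IN9 at E19 (948 against 1042 CPM), and Stmn1 at P21 (33.5 against 36.5 CPM). Tubb2b, a tubulin of growing neurons, stood at 1117, 582, 228 and 8.38 CPM against 874, 434, 187 and 4.80 CPM. Sox4, a relative of Sox11, stood at 227, 154, 133 and 29.3 CPM against 169, 93.4, 74.2 and 14.3 CPM. The median IN9 nucleus also had fewer UMIs, as given above, and more of them from ribosomal protein genes (0.708%, 0.510%, 0.271% and 0.176% against 0.567%, 0.375%, 0.260% and 0.158%) and mitochondrial genes (0.890%, 1.01%, 0.373% and 0.271% against 0.714%, 0.809%, 0.339% and 0.184%). Their part in these counts was not tested.

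Markers of other cell types were low in IN9. The 6 astrocyte markers summed to 253, 226, 183 and 115 CPM, against 178, 173, 167 and 83.2 CPM in the other inhibitory subtypes and 2211 to 6391 CPM in astrocytes. Oligodendrocyte markers summed to 64.9, 89.0, 60.9 and 440 CPM, against 58.2, 62.3, 68.1 and 333 CPM in the other inhibitory subtypes and 21534.5 CPM at P21 in the oligodendrocyte class. At P21, 44 of 45 IN9 nuclei (97.8%) and 97.7% of the other inhibitory nuclei had at least 1 UMI of them. Microglial markers summed to 0 to 19.5 CPM, endothelial markers to 0 to 16.2 CPM and markers of dividing cells to 0 to 8.09 CPM. The 5 excitatory markers, Slc17a6 included, summed to 90.9, 162, 54.7 and 23.1 CPM against 374, 189, 177 and 113 CPM, with no UMI of Slc17a7 or Etv1 in any library.

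The profile of IN9 was most like that of IN2. Over 6751 to 7290 genes per library, Pearson's r of log2(CPM + 5) between IN9 and IN2 was 0.852, 0.838, 0.919 and 0.909, with a mean of 0.879. IN1 followed at a mean of 0.863 and IN8 at 0.858, and IN10 was the least alike at 0.812. These correlations are across genes, which are not independent, and the profiles shared their libraries and differed in depth. When every profile was thinned to the same 117243 UMIs, IN2 stayed first at 0.772, IN12 and IN8 followed at 0.765 and 0.763, and IN1 took place 5 at 0.756, so the place of IN1 did not hold at equal totals.

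Against IN2 alone, 50 of 7534 genes (0.664%) were more than 2-fold higher in IN9 in every library and 91 (1.21%) were lower. The 5 highest were Otx2os1, Otx2, Il1rapl2, Slc24a4 and Arhgap31. Otx2, a homeobox factor of the forebrain and midbrain, stood at 253, 170, 213 and 128 CPM in IN9 against 28.6, 9.79, 24.4 and 11.4 CPM in IN2, and its antisense gene Otx2os1 at 1643, 1229, 1297 and 624 CPM against 114, 43.6, 73.6 and 44.3 CPM. Otx2 and Otx2os1 overlap in part, on opposite strands. Reads of that stretch cannot be told apart if counting did not use strand, so the 2 genes are not taken as separate evidence. Among the 12 subtypes IN9 ranked 4 to 7 for Otx2 and 7 or 8 for Otx2os1, so both contrasts rest on low levels in IN2. The 5 lowest were Cntn3, Emx2os, Htr2c, Vwc2l and Foxp2. Foxp2 stood at 1175, 1057, 1064 and 852 CPM in IN2, beside 58.4, 89.0, 18.8 and 29.3 CPM in IN9.

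Against IN1, 59 of 7565 genes (0.78%) were higher and 127 (1.68%) were lower. The highest were Fstl4, Tmem132d, Rorb, Tiam2 and Pde3a, and the lowest Cdh23, Htr2c, Adarb2, Cadps2 and Gpc5. Rorb stood at 106, 68.4, 31.1 and 27.4 CPM in IN1, and Gpc5 at 723, 715, 1551 and 1010 CPM beside 26.0, 72.8, 51.6 and 54.5 CPM in IN9. Both comparisons use the same IN9 nuclei.

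From E19 to P21, 718 of 4844 genes (14.8%) were more than 2-fold higher in IN9 and 815 (16.8%) were more than 2-fold lower, among those at 50 CPM or more at either stage. With 1 pooled library per stage, age cannot be told apart from the animals, capture and preparation of each library. Oligodendrocyte markers were higher at P21 in IN9 and in the other inhibitory subtypes alike, as given above, and their part in the genes that were higher was not tested.

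Genes of growing neurons were much lower at P21. The 8 genes with the lowest ratios at 100 CPM or more were Tubb2b, Fabp7, Nnat, Tmsb10, Tubb5, Tubb2a, Stmn1 and Kcnh8. Tubb2b had 172, 72, 146 and 4 UMIs and a log2 ratio of -6.39, and the other inhibitory subtypes together gave -6.49. Stmn1, which destabilises microtubules, stood at 812, 412, 188 and 33.5 CPM, a log2 ratio of -4.41 beside -3.78, and Nnat (neuronatin) at 948, 793, 358 and 18.9 CPM, a log2 ratio of -5.32 beside -5.23. On the list of immature genes, 14 of 15 were lower past 2-fold, beside 16.8% of all genes. The median of the 15 was -3.35 in IN9 and -3.17 in the other inhibitory subtypes, beside -0.04 and 0.00 over all genes. This list was chosen with earlier results of these data known, so the count is no independent support.

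Kcnh8 and Tubb2a were the 2 of these 8 genes whose ratio lay more than 2-fold below that of the other inhibitory subtypes. Tubb2a, a tubulin, gave -4.63 in IN9 against -3.59, just below the lowest other subtype at -4.56. Kcnh8, an ether-a-go-go-like potassium channel gene, stood at 130, 80.9, 81.3 and 2.10 CPM in IN9, the last value being 1 UMI, against 160, 133, 107 and 47.2 CPM in the other inhibitory subtypes. The log2 ratio of Kcnh8, -4.25, was the lowest of the 12 subtypes, the other 11 lying between -3.53 and -0.15.

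The 8 highest ratios were those of Rasgrf1, Gm13629, Etl4, BC030499, Htr1f, Pde8b, Mkx and Tango2. Rasgrf1, a calcium-responsive exchange factor for Ras, had 1, 6, 66 and 261 UMIs, or 6.49, 48.5, 103 and 547 CPM, and the other inhibitory subtypes went from 30.3 to 518 CPM. Gm13629, BC030499, Pde8b and Mkx had no UMI at E19, and their P21 levels of 226, 184, 126 and 122 CPM were at least 11.6-fold, 9.46-fold, 6.45-fold and 6.24-fold higher. Gm13629 lies antisense to the sodium channel gene Scn9a. BC030499 was seen at P21 alone, with 88 UMIs, and stood at 71.3 CPM in the other inhibitory subtypes there. Of 11 compared genes of a list of late neuronal genes, 10 were higher past 2-fold and Nefl (neurofilament light chain) was lower. Over all genes the shares were 14.8% and 16.8%. The median of the 11 was 2.08 in IN9 and 1.47 in the others. This list, too, was chosen with earlier results of these data known. Of 32 potassium channel genes 12 were higher and 4 lower, beside 14.8% and 16.8% of all genes, with a median of 0.76 in IN9 and 0.13 in the others.

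NMDA receptor and chloride transporter genes, whose balance is known to shift as neurons mature, were compared within each group. The log2 ratio of Grin2a to Grin2b UMIs in IN9 was -1.21 (-1.65 to -0.79), -0.70 (-1.17 to -0.24), -1.08 (-1.30 to -0.87) and 0.62 (0.40 to 0.85), against -1.74, -0.89, -0.63 and 0.21 in the other inhibitory subtypes. The ratio was highest at P21 in both groups, and by their counting intervals IN9 lay below the others at P8 and above them at E19 and P21. The log2 ratio of Slc12a5, which extrudes chloride, to Slc12a2, which imports it, was 3.13 (1.65 to 5.08), 2.49 (1.09 to 4.22), 1.79 (1.24 to 2.38) and 1.89 (1.28 to 2.55), against 1.51, 1.81, 1.96 and 2.02. Only 4 and 5 Slc12a2 UMIs stood behind the E19 and P4 values of IN9, and no change with age was detectable at this depth.

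The change from E19 to P21 differed by more than 2-fold between IN9 and the other inhibitory subtypes in 708 of 5228 genes, 441 (8.44%) with a higher and 267 (5.11%) with a lower change in IN9. With counts of 0 set at their limit these were 399 and 276. The sum of the other inhibitory subtypes changed in make-up between the 2 libraries. IN1 gave 266 of its 861 nuclei at E19 and 70 of 695 at P21. For Meis2 the sum gave a log2 change of -0.25, whereas the 11 other subtypes lay between -4.38 and -0.72. The part of this mix in the differences was not tested. Of 2701 genes at 100 CPM or more, 0 were past 2-fold in IN9 in the direction opposite to all 11 other subtypes.

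Htr1f (chromosome 16, 64924729 to 65105854, minus strand), a serotonin receptor coupled to Gi proteins, was among the 5 genes with the highest difference. It had 1, 2, 49 and 157 UMIs in IN9, or 6.49, 16.2, 76.6 and 329 CPM, while the other inhibitory subtypes stood at 37.0, 42.0, 54.8 and 66.6 CPM. IN9 thus went from place 9 of 12 at E19 to place 1 at P21. A UMI was present in 3.13%, 4.55%, 36.5% and 68.9% of IN9 nuclei, and after thinning in 33.3% at P21 against 10.1% of the other inhibitory and 10.3% of excitatory nuclei. The log2 change was 4.86 in IN9 and 0.77 in the others, and 1 other subtype reached 4.91.

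Slit2, with the highest difference (4.26, above Htr1f at 4.09), and Cacna2d3 (3.21) both rested on the E19 library. Slit2, a secreted ligand of Robo receptors, had no UMI in the 32 IN9 nuclei of E19, at least 13.8-fold lower than the 268 CPM of the other inhibitory subtypes, and then stood at 129, 109 and 92.2 CPM. Cacna2d3, an auxiliary calcium channel subunit, stood at 52.0, 243, 163 and 377 CPM against 592, 452, 353 and 428 CPM. From P4 on, the log2 steps of Slit2 were -0.23 and -0.23, and those of Cacna2d3 -0.56 and 1.19. Cplx1, a complexin of transmitter release, and Ypel2 also had no UMI at E19, and their P21 levels of 107 and 101 CPM were at least 5.49-fold and 5.16-fold higher than the limit there.

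On the lower side were Npsr1, Cdh4, Cpne4, Kcnh8 and Tiam2. Cdh4 (chromosome 2, 179442431 to 179899373, plus strand), the classical cadherin R-cadherin, stood at 721, 243, 191 and 52.4 CPM in IN9 and at 775, 731, 843 and 568 CPM in the other inhibitory subtypes. At E19 the 2 groups were alike, and at P21 IN9 was the lowest of the 12 subtypes. Its log2 change of -3.66 lay below those of all other subtypes, the nearest being -3.20. Cpne4, a calcium-dependent membrane-binding protein, followed the same course, at 260, 105, 64.1 and 33.5 CPM against 236, 260, 352 and 248 CPM. Npsr1, the neuropeptide S receptor, differed in another way: it had 1, 0, 10 and 0 UMIs in IN9 (15.6 CPM at P8) while the other inhibitory subtypes went from 1.89 to 101 CPM. Tiam2 was lower at P21 in IN9 (log2 change -1.49) and not in the others (0.82), yet IN9 was its highest subtype at every stage. At P21 that lead was small: IN9 stood at 75.4 CPM (36 UMIs), IN5 at 68.2 CPM and IN7 at 62.1 CPM.

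**Figure D4:**
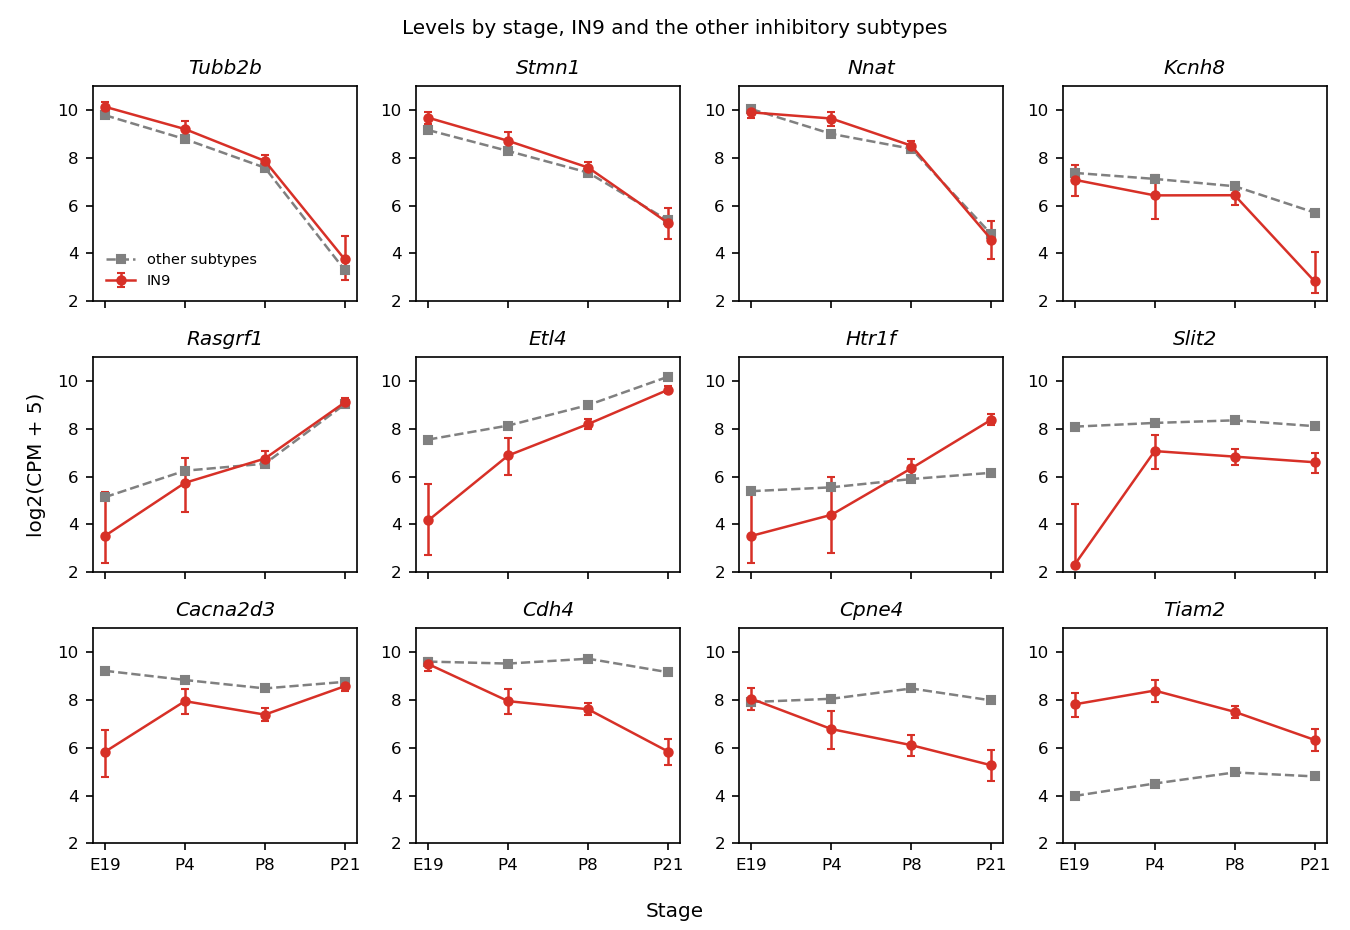
Levels on the log2(CPM + 5) scale at the 4 stages for 12 genes named in the text, in IN9 (red, solid, 95% Poisson intervals) and in the sum of the other inhibitory subtypes (grey, dashed). Tubb2b, Stmn1 and Nnat run together in both groups, Htr1f crosses from below to 329 CPM at P21, and Cdh4 and Cpne4 start together at E19 and part afterwards.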

How the data were processed

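Nuclei of superior colliculus were captured with 10x Genomics 3′ v3 chemistry, and Cell Ranger 3.0.2 with an mm10 pre-mRNA reference gave the UMI counts that the authors deposited, per the labels' protocols and the submitters' processing notes, so intronic reads entered gene totals. The deposited table of nuclei gave stage, subtype, cluster, reference labels, and the percent of UMIs from mitochondrial genes (at most 5 percent) and ribosomal protein genes. How the authors treated doublets, filtered nuclei and used strand is not given in the sources used here, and no doublet caller was run. Another 4 columns of per-nucleus values were not used. UMI and gene totals recomputed from the matrix equalled the deposited ones in all 9724 nuclei.

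Counts were summed per subtype and library with numpy 2.4.6 and scipy 1.17.1 and scaled to CPM. Ratios used a pseudocount of 5 CPM, floors of 20 CPM (subtypes) and 50 CPM (stages), and a threshold of 2-fold, in all 4 libraries for subtypes. No test was made: each stage had 1 library. The ratios were checked on simulated data, whose settings and outcome are not given here. Thinning drew 2300 UMIs per nucleus. Intervals are at the 95% level, and a count of 0 was bounded at 3 UMIs. Gene positions came from the GENCODE M21 annotation (GRCm38), which held 31011 of 31053 gene identifiers. Named genes were Gad1, Gad2 and Pax7, the 15 highest and 10 lowest against the other inhibitory subtypes at 50 CPM or more, up to 3 per side of each of 19 lists, the 8 largest stage changes and 5 largest differences per side at 100 CPM or more, and 5 per side against IN2 and IN1. Pvalb, Reln, the transmitter genes and the pairs of receptor and transporter genes were outside this rule. Rankings left out 861 mitochondrial, ribosomal protein, haemoglobin and Y-linked genes, Xist and Tsix included. The subtype, its markers and the gene lists were chosen with earlier results of these data known.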

Additional observations from a re-analysis of the deposited data

How the results depend on the processing

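No paired analysis was possible because each stage had 1 library. Under the alternatives tried, 51 values of single genes all kept their direction, and 302 of 366 of their alternatives stayed within the counting interval. The median-of-ratios scaling moved the median ratio by -0.01 and the median stage change by 0.10 (log2). Of the 25 genes highest or lowest in IN9, 4 came within 2-fold under a setting. They were Arhgap31 after thinning (a log2 ratio of 0.48 in the library nearest 0), and Tmem178 (0.38), Tiam2 (0.67) and Cadps2 (-0.62) without mixed nuclei. Mixed nuclei were those with any Slc17a6 UMI, or with over 2 UMIs of the oligodendrocyte or of the astrocyte markers. Of the 32 higher and 116 lower genes, 24 and 84 were called after thinning, and 21 and 73 without those nuclei. Counts of genes moved with the settings. With a pseudocount of 20 CPM, 77 genes were lower than in the other inhibitory subtypes and the stage differences numbered 229 and 131 (higher, lower). With no filter on low genes, 2240 and 2579 genes differed between stages and 1954 and 1367 in their change. After thinning, the differences in change numbered 917 and 782. Without mixed nuclei, which left 4 of 45 P21 nuclei of IN9, 1129 genes were higher at P21 and the differences numbered 1018 and 1177. A floor of 100 CPM, chosen after seeing the data, gave 386 and 381 genes between stages and 184 and 103 in their change. Without the E19 and P4 libraries, also chosen then, 66 and 178 genes were higher and lower than in the other inhibitory subtypes, 101 and 153 than in IN2, and 107 were higher than in IN1. Leaving out each library in turn gave 40 to 48 higher and 133 to 149 lower genes, and starting from P4 gave 557 and 627 between stages. The mean r with IN2 was 0.785 after thinning of nuclei and 0.772 at equal UMI totals, and that with IN1 0.760 and 0.756. Pax7 at P8 stood at 341 CPM after thinning. The cause of these moves was not tested where it does not follow from fewer genes, nuclei or libraries.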
